A study of Mus musculus with 3 samples.

Results

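The cytosolic ribosomal protein genes are those that encode the protein parts of the ribosome of the cell body, which makes all proteins coded in the nucleus. They were taken by name and gene type: protein-coding genes called Rpl or Rps with digits and at most 1 of the letters a, x or y, plus Rplp0, Rplp1, Rplp2 and Rpsa. Of the 57180 genes in the deposited table, 76 met this rule, 46 of the large subunit (Rpl genes) and 30 of the small subunit (Rps genes). The study collected wild-type mouse cells that look like black balls from the vestibule, the organ of balance, as 3 libraries of 1 group with no control. The labels call them macrophages and immune cells, the series title names melanocytes, and the protocol speaks of 18 cells from 9 mice, 3 mice per group. RNA with a poly(A) tail was amplified with the SMART-Seq HT kit before sequencing. The labels do not say which mice or how many cells stand behind each library, so the spread between libraries, called replicates 1 to 3, may be technical.

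A ribosome is built from a large subunit, which joins amino acids, and a small subunit, which reads the mRNA. Each holds 1 copy of most of its proteins, and the exception is the stalk of the large subunit, where the proteins of Rplp1 and Rplp2 sit in pairs on that of Rplp0. The mRNAs of these genes are known to begin with a run of C and T letters, the 5′ terminal oligopyrimidine (TOP) tract, through which cells switch their translation on and off with growth signals. The genes are also known for the many processed pseudogenes, copies without introns, that mammalian genomes hold for them, and such copies bear on how the reads were counted here.

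Windows of 30 bases that hold a run of C and T letters near the annotated start are shown (GRCm38.p6, 5′ to 3′ on the gene's strand). They are those of the highest genes of each subunit and the lowest genes with an entry in the RefSeq promoter table. Such runs are shown because the mRNAs of this family are known for the TOP tract. Capitals mark the longest run of C and T letters that begins with C and starts within 50 bases of the annotated start.
Rpl4, chr9:64173407-64173436, + strand: gcgtggCCTTCTCCTCTCCCCgtcatggtg
Rplp0, chr5:115559475-115559504, + strand: tggttCTCCTataaaaggcacacgcgggca
Rpl14, chr9:120571504-120571533, + strand: gcgggCCCTCTCTCTTCTCgctgagcgccg
Rps15, chr10:80292451-80292480, + strand: ccgtaCTTCCTTTTCCgagtaaccgccaag
Rps4x, chrX:102189342-102189371, - strand: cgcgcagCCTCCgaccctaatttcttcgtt
Rps9, chr7:3704031-3704060, + strand: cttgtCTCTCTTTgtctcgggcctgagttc
Rps12, chr10:23787177-23787206, - strand: gccggCCTTTTCCCCTgccgccgccgactt
Rps13, chr7:116334154-116334183, - strand: cgtcaCTTCCTgtgcggcttgatttcctgt
The run was 15 letters long at Rpl4 and 14 at Rpl14, against 5 at Rplp0 and Rps4x and 6 at Rps13. The lowest genes did not share a short run, since that of Rps12 was 11 letters long. Runs began at offsets of 26, 25 and 27 bases from the annotated start at Rpl4, Rps15 and Rps4x. The offsets were 13 at Rplp0, 12 at Rps13, 8 at Rps12, -8 at Rpl14 and -5 at Rps9. Where each mRNA begins in these cells was not tested, so a run shown here need not be a TOP tract.

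The promoter table held 66 windows for 56 of the 76 genes, and genes without an entry included Rpl32, Rplp1, Rps20, Rpl23a, Rps14, Rpl29, Rpl21, Rps27a, Rpl36, Rpl30, Rps29, Rpl17, Rpl8, Rpl7 and Rpl3. A run of at least 8 letters, read on the gene's own strand, was found in 81.8% of the 66 windows and in 28.8% of the 32851 windows of the whole table. By gene, 48 of 56 had one, 31 of 34 in the large and 17 of 22 in the small subunit. Of the 27025 genes of the whole table, 8645 (31.99%) had one. Genes of mitochondrial ribosomal proteins serve the separate ribosome of mitochondria and are not known as TOP mRNAs. They had such a run in 22 of 69 cases (31.88%), close to the share of the whole table. Other genes known as TOP mRNAs, from a list of translation and related genes, had one in 4 of 10 cases, with a median longest run of 7 letters against 10 in the family and 6 in the mitochondrial group. The letters CTTTTCC, which can lie inside such a run, stood within 50 bases of the start in 8 of the 56 genes (14.3%). By gene, 1.48% of the whole table had them. The letters CCGGAAGT, a form of the site of ETS factors, stood on either strand of the 300-base window in 11 of the 56 genes (19.6%), 17.4% of the mitochondrial ribosomal protein genes and 4.31% of all genes of the table. AAGATGG, a core of the YY1 site, stood in 9 genes (16.1%), 18.8% of the mitochondrial group and 7.28% of all genes. These matches are letters in a window and say nothing about binding.

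Ribosomal protein mRNAs were present in every library, and all 76 genes had counts in all 3. In TPM, a level scaled by gene length and to a fixed total in each library, 75 of 76 stood above 1 TPM in limma's one-sided test on log2(TPM + 1) (Benjamini-Hochberg adjusted p under 0.05 over all 27265 genes with a count). Of all genes tested 37.6% did so, and of protein-coding genes 50.5%. All 46 large subunit genes and 29 of 30 small subunit genes passed. The exception was Rps13, a protein that binds the central domain of the small subunit's RNA, at 1.26, 1.27 and 2.28 TPM in replicates 1, 2 and 3 (limma, adjusted p = 0.393). Together the 76 genes took 1.30%, 1.13% and 1.74% of all counts in replicates 1, 2 and 3, a mean of 1.39% ± 0.319 (SD, n = 3, as for all values with ± below). The exact binomial 95% interval of replicate 3 ran from 1.74% to 1.75% and covers counting error only, since PCR copies carried no molecular identifiers.

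The libraries held 14095521 to 18460546 counts. The labelled cell types were checked by their markers. All 12 macrophage markers stood above 1 TPM, as did 7 of 9 melanocyte markers, all but Kit and Mitf. Markers of other cells were present as well: 5 of 6 erythroid, 4 of 4 neuronal, 5 of 5 hair cell, 4 of 4 supporting epithelium, 5 of 5 fibroblast and fibrocyte, 3 of 4 neutrophil and 3 of 4 Schwann cell genes passed the same test, and no marker was at 0 in all 3 libraries. The ribosomal protein values below are therefore sums over whatever cells were in each tube, and fewer cells of a type cannot be told apart from less RNA per cell.

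The genes differed widely among themselves in the deposited length-scaled values. Mean TPM ran from 1.60 for Rps13 to 1722 for Rplp1, with 29 genes above 100 TPM, 9 under 10 TPM and a median of 66.7 TPM. The 10 highest genes held 56.2% of the summed TPM of the family. The order of the genes was close to the same in each library: across the 76 genes, which share the libraries and their depth, Spearman's rho of log2(CPM + 1), where CPM are counts scaled to the library's total, was 0.99 between replicates 1 and 2, 0.96 between 1 and 3 and 0.96 between 2 and 3.

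**Figure D1:**
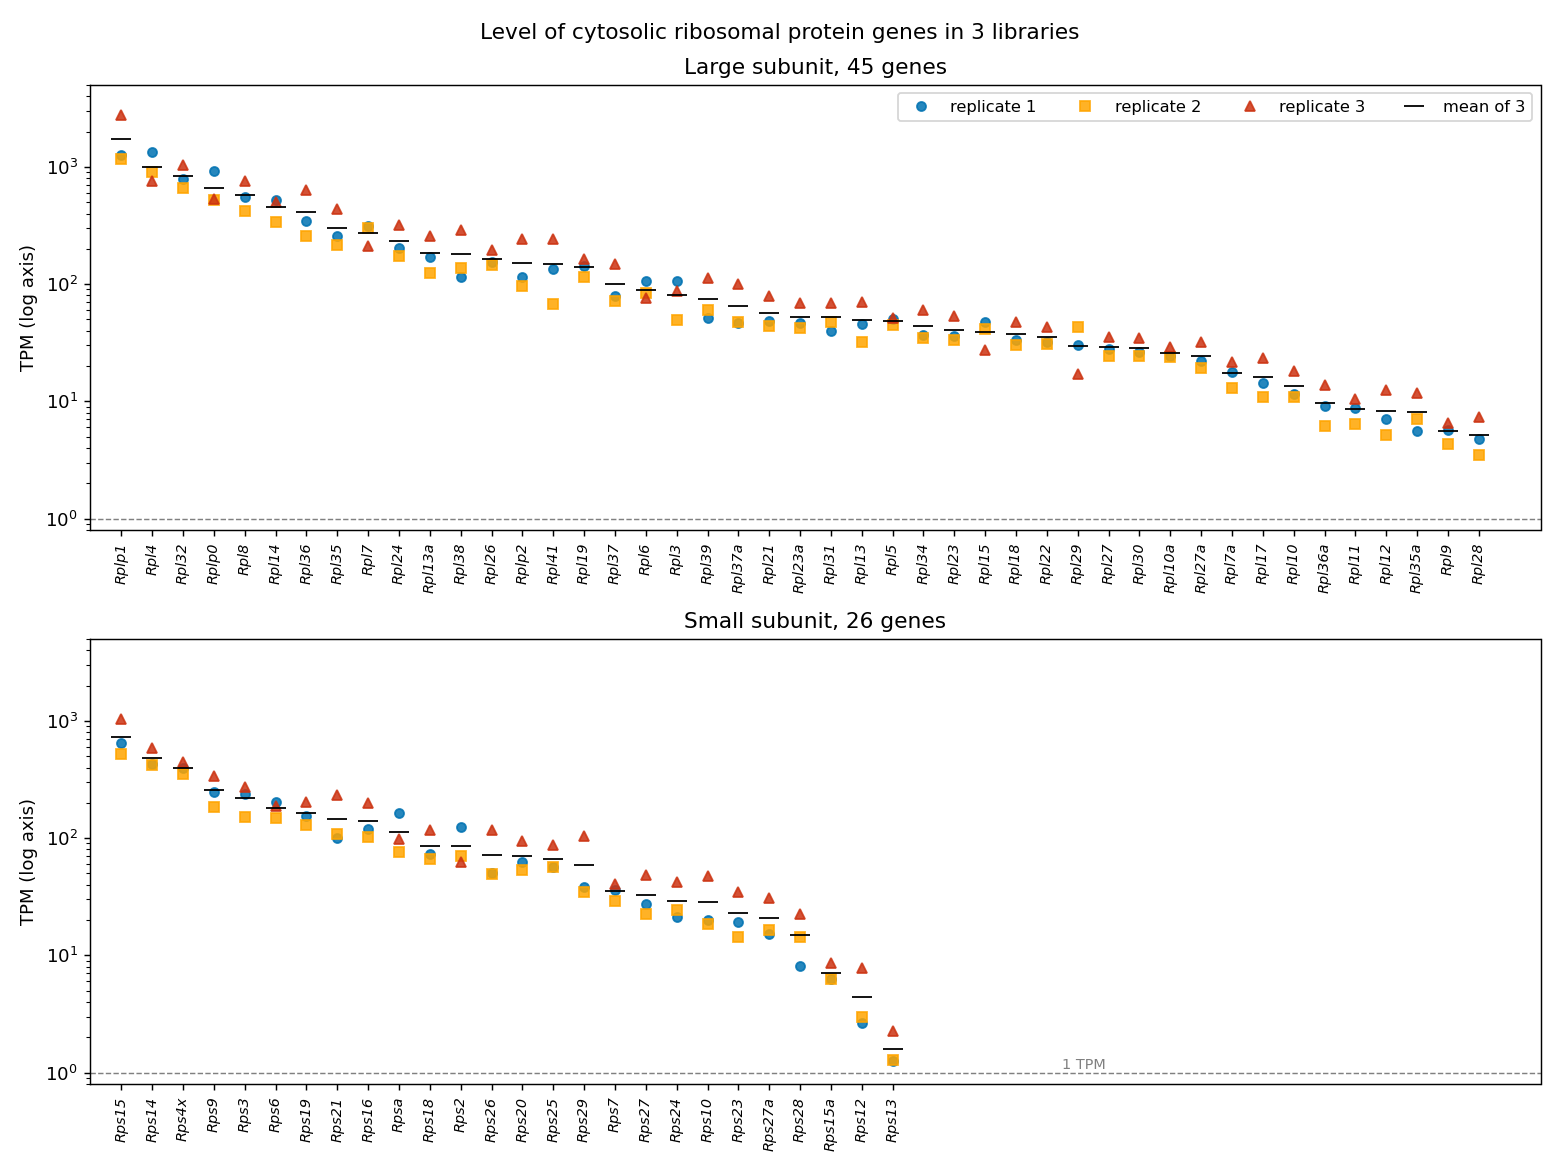
TPM of the genes reported here (log axis) in replicates 1 (circles), 2 (squares) and 3 (triangles) with the mean of 3 (bars), sorted within the large (45 genes) and small subunit (26 genes), with 1 TPM as a dashed line. Levels fall from 1722 TPM at Rplp1 to 1.60 TPM at Rps13, and the triangle is the highest of the 3 points for 60 of the genes drawn.

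In the large subunit, the stalk gene Rplp1, an acidic protein that helps recruit translation factors, was highest at 1255, 1167 and 2745 TPM in replicates 1, 2 and 3. Rpl4, which lines the tunnel through which the new protein leaves, stood at 1347, 904 and 764 TPM. Rpl32 stood at 787, 659 and 1042 TPM. These 3 genes did not share an order of libraries, since replicate 3 was the highest for Rplp1 and Rpl32 and the lowest for Rpl4. The stalk base Rplp0 stood at 918, 525 and 528 TPM, highest in replicate 1, and Rpl8, a protein next to the site where the peptide bond is made, at 558, 417 and 752 TPM. The third stalk gene, Rplp2, which pairs with Rplp1, stood at 115, 95.4 and 241 TPM, and its values did not overlap those of Rplp1. In CPM, which is not scaled by length, the values did overlap, at 131, 121 and 319 for Rplp2 and 252, 261 and 643 for Rplp1. The length implied by the deposited count and FPKM was 2821 bases for Rplp2 and 499 for Rplp1.

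At the low end of the large subunit stood Rpl28 with 4.74, 3.45 and 7.28 TPM and Rpl9 with 5.72, 4.35 and 6.53 TPM. Rpl35a followed at 8.10 ± 3.21 TPM, Rpl12 at 8.24 ± 3.85 TPM and Rpl11, which with Rpl5 carries the 5S RNA into the subunit, at 8.52 ± 1.99 TPM. All of these passed the test against 1 TPM, Rpl28 with the largest adjusted p of them (limma, 0.0118). Rpl5 itself stood at 48.9 ± 3.32 TPM, above every library's value of its partner Rpl11.

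In the small subunit, Rps15, which lies near the decoding site, was highest at 649, 522 and 1033 TPM. Rps14 stood at 428, 424 and 585 TPM. Rps4x, whose gene lies on the X chromosome, stood at 399, 351 and 444 TPM. All 3 were highest in replicate 3, Rps15 by the largest margin. Rps13 was the lowest, followed by Rps12 at 2.64, 2.96 and 7.77 TPM and Rps15a at 6.28, 6.32 and 8.57 TPM. Rps28 stood at 8.09, 14.3 and 22.4 TPM and Rps27a, which is made as a fusion with ubiquitin, at 15.3, 16.6 and 30.8 TPM. Rpsa, a protein at the mRNA exit that also occurs as a laminin receptor, stood at 163, 76.1 and 98.9 TPM, in the middle of the family.

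Each gene was also set against the median of the family in its own library, which was 50.8, 49.1 and 85.9 TPM in replicates 1, 2 and 3. In limma's two-sided test of that difference, adjusted over all genes tested, 28 of the 76 stood above the family median (17 large, 11 small), 24 below (14 large, 10 small) and 24 did not pass. Of all genes tested, 4.68% stood above this median and 88.2% below. The largest difference was that of Rplp1, at 4.71 ± 0.28 (SE) on the log2(TPM + 1) scale (limma, adjusted p = 2.39e-09). Rpl4 differed by 4.01, Rpl32 by 3.74, Rps15 by 3.53, Rplp0 by 3.38 and Rps14 by 2.96 (limma, largest adjusted p of these 5.86e-07). On the other side Rps13 differed by -4.57, Rps12 by -3.60, Rpl28 by -3.35 and Rpl10 by -2.11 (limma, largest adjusted p of these 0.000294). Rpsa missed the threshold at 0.83 ± 0.38 (SE; limma, adjusted p = 0.0501). Leaving out replicate 2 reduced the genes below the median from 24 to 15.

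The comparison of the subunits asked whether the proteins of both were present at like mRNA levels. The mean of log2(TPM + 1) over the large subunit genes was 6.12 ± 0.32 and over the small subunit genes 6.08 ± 0.39. The large subunit stood higher by 0.12 in replicate 1 and 0.06 in replicate 2 and lower by a difference of -0.04 in replicate 3, a mean of 0.05 ± 0.08, which is less than its spread between libraries. With 3 libraries an exact sign-flip test cannot go below p = 0.25, so none was run. The direction depended on how the level was taken: the mean difference was -0.11 in CPM, -0.34 with the median over genes in place of the mean, and -0.13 with further ribosomal protein genes whose names fall outside the rule added. The median gene of the large subunit had 54.7 TPM and that of the small subunit 71.3 TPM, while the 46 large subunit genes summed to 8720 TPM and the 30 small subunit genes to 4317 TPM. Of the family's counts, 61.1%, 59.6% and 56.9% fell in the large subunit in replicates 1, 2 and 3.

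Of the ribosomal protein genes with names outside the rule, 3 are described here. Rps3a1, of the small subunit, stood at 1568, 1334 and 1250 TPM, between Rplp1 and Rpl4 in mean level. Fau, which encodes a ubiquitin-like fusion with a small subunit protein, stood at 98.6, 83.1 and 197 TPM, and the scaffold protein Rack1 at 82.9, 60.9 and 119 TPM. All 3 passed the test against 1 TPM, and replicate 3 was highest for Fau and Rack1 but not for Rps3a1.

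Of the 9 paralogs, genes closely related to a ribosomal protein gene, 6 passed the same test. Rps27rt, a copy of Rps27 without introns, stood at 1669, 1640 and 2689 TPM, against 27.3, 22.5 and 48.5 TPM for Rps27. Reads from such a pair cannot be told apart where the sequences agree, so the split between them is uncertain. Rps4l stood at 335, 256 and 239 TPM, Rps27l at 242, 212 and 352 TPM, Rpl36al at 89.2, 108 and 185 TPM, Rpl7l1 at 112, 88.5 and 69.0 TPM and Rpl22l1 at 36.6, 44.0 and 51.4 TPM. Of the paralogs known from muscle and testis, Rpl3l had 1, 4 and 0 counts. Rpl39l had 0, 0 and 53 counts, so that it was seen in replicate 3 alone, at 6.27 TPM. Rpl10l had no count in any library, which allows up to 0.163, 0.199 and 0.213 CPM.

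The near-identical copies of the ribosomal protein genes took more counts than the genes themselves. Annotated pseudogenes were assigned to a gene where they matched its GENCODE M21 coding sequence with at least 90% identity over at least 80% of its length. There were 956 of them, 826 with a count, and a gene had a median of 9 copies and at most 76 (Rpl21). The median identity of the copies was 95.7%. The copies held 287285, 209721 and 335742 counts in replicates 1, 2 and 3, against 239669, 169881 and 245957 in the 76 genes. Copies thus made up 54.5%, 55.2% and 57.7% of the counts of genes and copies together. For 47 of the 76 genes the copies held more counts than the gene in every library, and for 14 the copies' share was over 90%. No such copy was found for 4 genes, among them Rplp2, Rps3 and Rpl8.

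Rps13, Rpl28, Rpl10, Rpl17 and Rps23 had the largest shares of counts in pseudogenes that carry their own symbol. With all copies found by sequence, the copies' share was 97.0% ± 0.0859 for Rps13, 96.9% ± 0.218 for Rpl28, 96.9% ± 0.701 for Rpl10, 96.6% ± 0.146 for Rpl17 and 95.2% ± 0.226 for Rps23. The highest genes in TPM had shares of 4.77% for Rpl4, 3.47% for Rpl32 and 23.6% for Rplp1. The gene's own count is part of the total of this share, so a low count by itself raises it. A high gene could still have a large share, as did Rpl36, with 81.5% at 410 TPM. The single pseudogene Rps13-ps2 held 1059, 1075 and 1711 counts, while Rps13 held 78, 72 and 126. It matched the whole coding sequence of Rps13 without a difference, and Rpl28-ps1 (2214, 1639 and 3368 counts, against 92, 61 and 126 for Rpl28) likewise matched the whole of Rpl28. Rpl10-ps5 (7712, 5885 and 6925 counts, against 439, 379 and 615 for Rpl10) differed from Rpl10 at 3 of 642 bases. These copies were closer to their genes than the median copy, whose identity was 95.7%. The first 60 coding bases of Rps13 and Rpl28, and bases 28 to 87 of Rpl10 beside the copy, are shown (GENCODE M21, 5′ to 3′). Differences are in capitals, and the stretches show how little sequence separates these genes from these copies.
Rps13 and Rps13-ps2: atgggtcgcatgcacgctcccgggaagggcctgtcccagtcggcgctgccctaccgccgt
Rpl28 and Rpl28-ps1: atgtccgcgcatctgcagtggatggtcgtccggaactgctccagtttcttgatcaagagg
Rpl10: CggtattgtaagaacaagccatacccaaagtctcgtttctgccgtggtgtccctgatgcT
Rpl10-ps5: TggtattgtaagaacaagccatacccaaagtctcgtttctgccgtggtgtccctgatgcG
A read within the Rps13 or Rpl28 stretch cannot be placed by its sequence. In the Rpl10 stretch, only a read that covers at least 1 of the 2 differing bases can be told apart from one of Rpl10-ps5. Such a read still cannot be told apart from one of Rpl10-ps1, which matched the whole coding sequence of Rpl10 without a difference. Rpl10-ps1 held 7044, 5364 and 5550 counts in replicates 1, 2 and 3. The sources used here do not say how reads with several matches were counted.

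**Figure D2:**
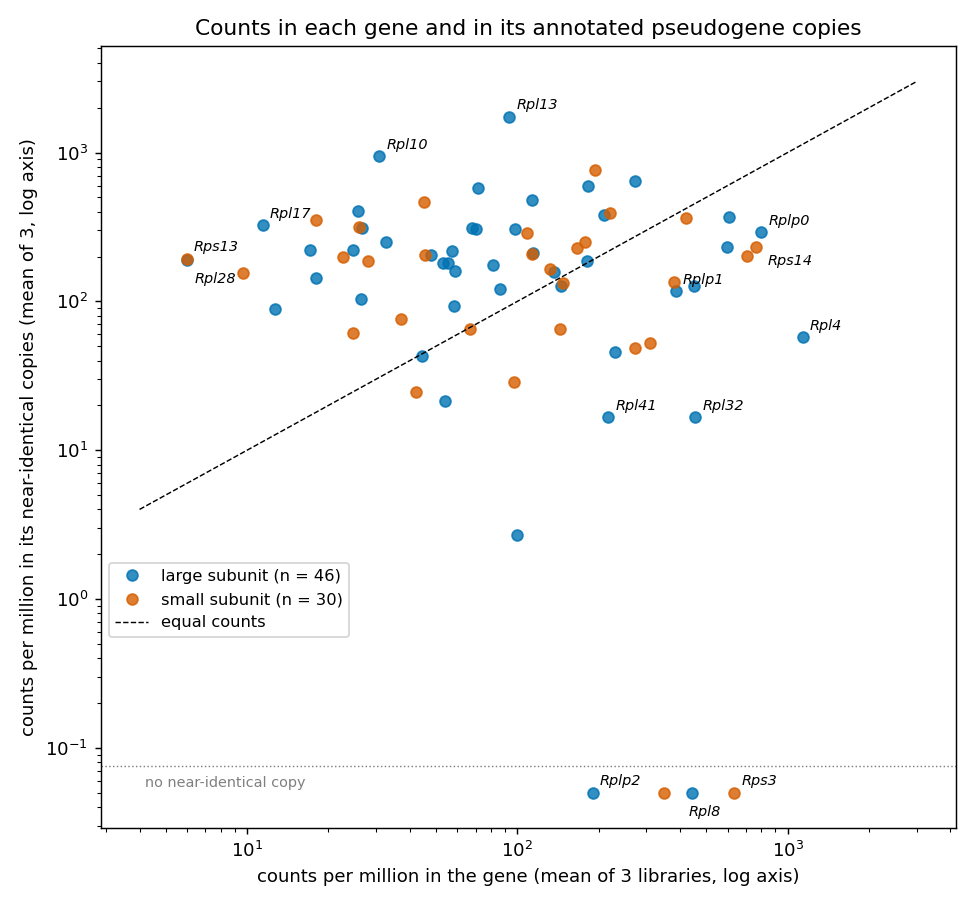
CPM of each of the 76 genes (x axis, log) against the CPM of its near-identical pseudogene copies (y axis, log), both as means of 3 libraries, with the large subunit in blue and the small in orange. Points above the dashed line of equal counts have more counts in copies than in the gene, with Rps13, Rpl28, Rpl10 and Rpl17 farthest from it, and the 4 genes without a copy are drawn below the dotted line.

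The length that scales TPM was a further source of difference between the genes. The length implied by the deposited count and FPKM had a median of 3223 bases over the family, against a median of 705 bases for the GENCODE M21 transcript with the coding sequence used here. It exceeded that transcript in 74 of 76 genes and the whole genomic span of the gene in 37. For Rplp1 it was 499 bases, the same as the transcript, while for Rps13 it was 8365 bases against a transcript of 589. Across the 76 genes, which share the libraries, Spearman's rho between the implied length and mean TPM, of which the length is the divisor, was -0.42.

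With counts divided by coding length alone, the highest genes were Rpl41, Rps14, Rps9, Rplp1 and Rpl32, at 2892, 1691, 1218, 1126 and 1125 CPM per coding kb. With the copies' counts added as well, the first 4 were Rpl41, Rpl13, Rps14 and Rps19, at 3115, 2896, 2205 and 1803 CPM per coding kb. Rpl41 encodes the smallest ribosomal protein, with 75 coding bases, so its value per coding kb leaves out most of its mRNA. Rpl13 moved from rank 45 in TPM to rank 2, and Rpl10 from rank 67 to rank 7. The ratio of the highest to the lowest gene fell from 1075 in TPM to 17.1 on this scale, and the SD over genes of the mean log2(level + 1) from 2.00 to 0.78. Rps13, the lowest gene in TPM, stood at 440.2 CPM per coding kb with its copies, rank 65. The order of levels within the family therefore depended in part on the deposited counting and lengths. With coding length and copies together, 44 of the 76 genes kept the result they had against the family median. In TPM 28 genes were called above and 24 below the family median. Of these, 10 lay on the other side of 0 with copies added, 2 with coding length and 11 with both. Only 6, 2 and 2 of them were also called on that other side. In CPM 5 lay on the other side, 1 of them called there. Rpl10 was among those with copies and with both (0.80 and 1.21).

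**Figure D3:**
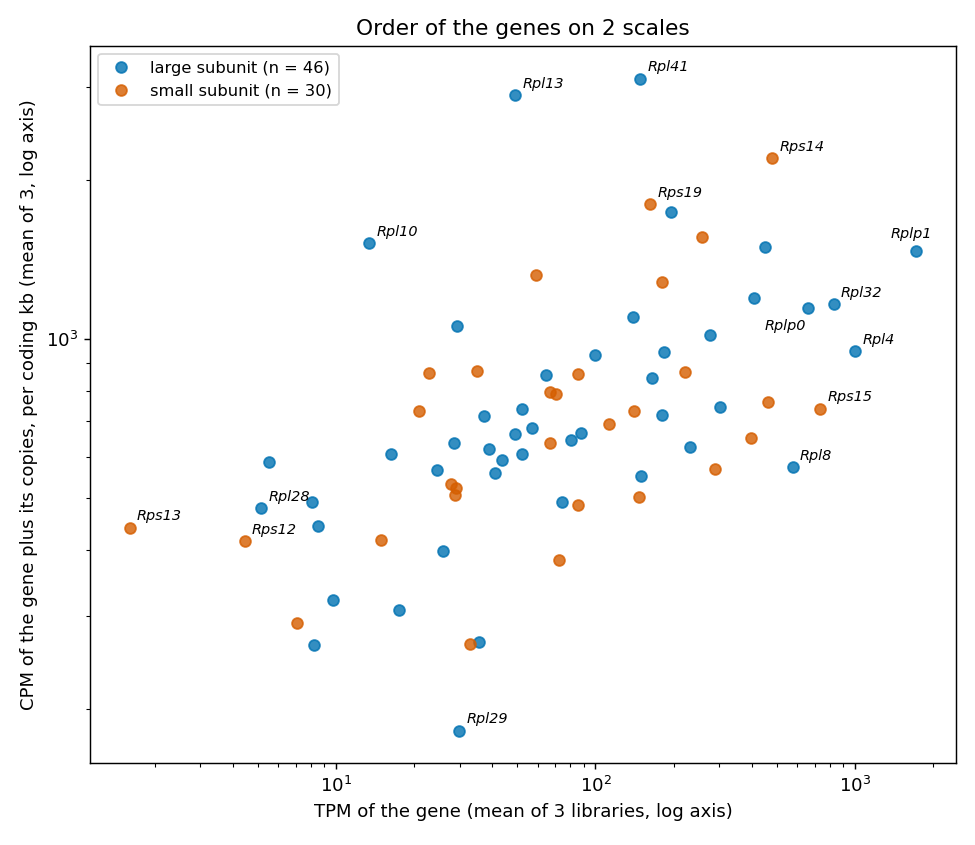
Mean TPM of each gene (x axis, log) against the mean CPM of the gene plus its copies per coding kb (y axis, log), over 3 libraries, with the large subunit in blue and the small in orange. TPM spans a 1075-fold range and the other scale a 17.1-fold range, and Rpl13 and Rpl10 stand high on the second scale only.

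Overlap with other genes touched fewer members. Of the 76, 45 overlapped another gene of the table, such as a small nucleolar RNA gene inside an intron, and 23 overlapped a protein-coding or long noncoding RNA gene. In 3 of these the other gene had more counts than the ribosomal protein gene, as with Ube2s, whose mean count was 8.95 times that of Rpl28. The sources used here do not say whether counting used the strand, so reads from a stretch that such a pair shares may not be told apart.

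The spread between libraries had a shared direction. Scaled by library total, 67 of the 76 genes were highest in replicate 3, 39 of 46 in the large and 28 of 30 in the small subunit, where 40.7% of all genes tested and 38.7% of protein-coding genes of at least 100 mean CPM were highest there. Of the mitochondrial ribosomal protein genes, 38 of 78 (48.7%) were. In the family the same number, 67, were highest in replicate 3 with edgeR's TMM factors and with DESeq2's size factors. The median over genes of log2 replicate 3 over replicate 1 was 0.81, with 22 genes at least doubled, while that of replicate 2 over replicate 1 was -0.04. The median SD of log2(CPM + 1) was 0.48 in the family, 0.29 in the mitochondrial ribosomal protein genes, 0.45 in all genes tested and 0.40 in protein-coding genes of at least 100 mean CPM. The order against all genes tested turned with the other scalings, to 0.41 in the family and 0.44 in all genes with both TMM and DESeq2's size factors. Without replicate 3, and scaled by library total, the median SD fell to 0.11 in the family. In protein-coding genes of at least 100 mean CPM it fell to 0.23. The common biological coefficient of variation, edgeR's estimate of relative spread beyond counting error, was 0.377 in the family and 0.155 without replicate 3, and 0.297 and 0.208 in the mitochondrial ribosomal protein genes. In protein-coding genes of at least 100 mean CPM it was 0.359, below the family, but with TMM it was 0.364 against 0.331 in the family and with DESeq2's size factors 0.366 against 0.325.

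The 5 genes with the largest spread had 75 to 495 coding bases. Rpl41 had the largest SD of log2(CPM + 1), 0.96, with 176, 99.5 and 376 CPM in replicates 1, 2 and 3, followed by Rps29 with 0.91 and 13.1, 13.3 and 41.4 CPM. Rps12 had 0.86 with 5.09, 6.36 and 17.5 CPM, Rps10 had 0.82 with 28.4, 29.3 and 79.2 CPM, and Rps28 had 0.81 with 11.9, 23.3 and 38.5 CPM. Each of these was highest in replicate 3. The smallest SD was that of Rpl6, 0.13, with 231, 206 and 193 CPM, and Rpl5 had 0.15. Rps6, the small subunit protein that S6 kinase phosphorylates, had 0.22 with 199.6, 162 and 218 CPM, and Rps4x had 0.23.

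The 9 genes that were lower in replicate 3 than in replicate 1 had coding sequences of 480 to 1257 bases: Rps2, Rpl4, Rplp0, Rpl29, Rpl6, Rpl3, Rpsa, Rpl7 and Rpl15. Rps2 had the largest such difference, a log2 ratio of -0.76 with 239.6, 150.5 and 141 CPM in replicates 1, 2 and 3. All 38 genes with a coding length at or below the family median of 454.5 bases were higher in replicate 3 than in replicate 1, with a median log2 ratio of 1.00, and 29 of the 38 longer ones were, with a median of 0.49. Across the 76 genes, which share the libraries and their depth, Spearman's rho between coding length and log2 replicate 3 over replicate 1 was -0.75, with -0.76 in the large and -0.72 in the small subunit. For replicate 3 over replicate 2 it was -0.53, and for replicate 2 over replicate 1 -0.48. The same ratio taken over the copies gave -0.85 across the 71 genes whose copies held at least 50 counts in replicate 1.

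Length went with this ratio outside the family too. Among the other protein-coding genes of at least 100 mean CPM, 66.9% of the 369 with coding sequences of at most 454.5 bases were higher in replicate 3 than in replicate 1, against 37.1% of the 1263 longer ones. Among mitochondrial ribosomal protein genes it was 19 of 24 short and 25 of 54 long genes. Across the mitochondrial ribosomal protein genes Spearman's rho was -0.42 (n = 78), and across all protein-coding genes of at least 100 mean CPM -0.29 (n = 1668). Cell markers also moved with replicate 3. The macrophage markers, of the labelled cell type, had a median log2 replicate 3 over replicate 1 of 0.85, against 0.81 in the family, and 9 of 12 were highest in replicate 3. Their mean log2(TPM + 1) was 6.61, 6.90 and 7.22 in replicates 1, 2 and 3, while their summed level was 8964, 5755 and 6539 TPM. The supporting epithelium markers went the other way, with a median of -0.42 and 1 of 4 highest in replicate 3. Melanocyte markers, of the cells in the series title, had a median of 0.56 and 5 of 9 highest in replicate 3. Fibroblast and fibrocyte markers had -0.30 with 2 of 5, Schwann cell markers -0.07 with 2 of 4 and hair cell markers 0.21 with 2 of 5. Neutrophil markers had 3.26, with 0 of 4 highest in replicate 3. Of other cells, the share of globin counts was 0.910%, 1.40% and 2.52% in replicates 1, 2 and 3, and the 4 neuronal markers summed to 68.5, 62.1 and 299 TPM, each of them highest in replicate 3. Mitochondrially encoded genes made up 2.40%, 5.40% and 2.60%. The part of fragment length, RNA quality, globin content, or macrophage, melanocyte, epithelial, neuronal or other cell RNA in the ribosomal protein ratios was not tested.

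**Figure D4:**
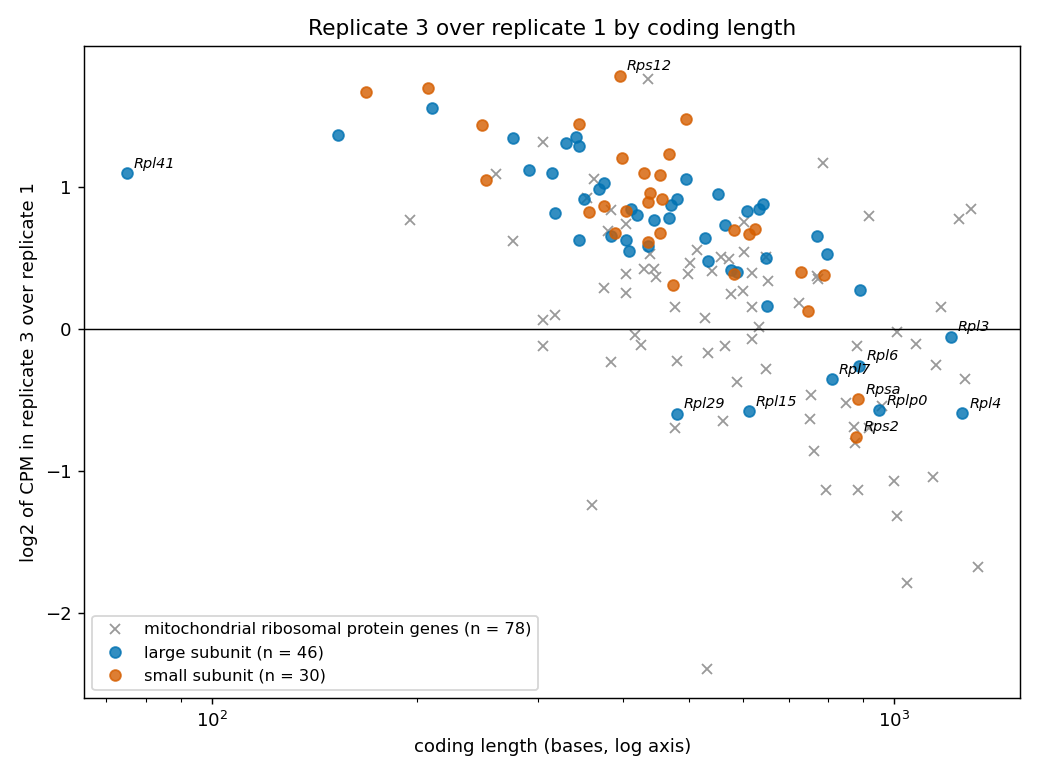
Log2 of CPM in replicate 3 over replicate 1 (y axis) against coding length in bases (x axis, log) for the large (blue) and small subunit genes (orange) and the 78 mitochondrial ribosomal protein genes (grey crosses). All ribosomal protein genes of up to 453 coding bases lie above 0, and the 9 below 0 have 480 to 1257 coding bases.

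The other genes of translation placed the family among its neighbours. The family's mean level, 6.11 ± 0.35 on the log2(TPM + 1) scale, differed from that of the 78 mitochondrial ribosomal protein genes (5.80 ± 0.11) by 0.09, 0.07 and 0.75 in replicates 1, 2 and 3, or by a mean of 0.30 ± 0.39 and, without replicate 3, of 0.08. All 78 stood above 1 TPM, and 21 stood above and 23 below the median of the cytosolic family. Mrps6 was the highest of them at 1362, 1190 and 1420 TPM, with Mrpl34 at 433 ± 117, Mrps28 at 300.0 ± 37.9 and Mrpl54 at 291 ± 89.6 TPM. The 24 initiation factor genes, whose products bring mRNA and ribosome together, had a level of 5.70 ± 0.16, and the family stood above them by 0.14, 0.23 and 0.85. All 24 passed against 1 TPM, led by Eif5a (357 ± 44.7 TPM), Eif1 (356 ± 52.2 TPM), Eif3g (193 ± 52.1 TPM) and Eif3k (141 ± 22.0 TPM). In CPM the family stood below the initiation factors by a difference of -0.64 ± 0.39.

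The 15 other genes known for TOP mRNAs stood higher than the family, at 6.65 ± 0.18, a difference of -0.75, -0.63 and -0.26 in replicates 1, 2 and 3. With the copies of the ribosomal protein genes added to them the difference was 1.21 ± 0.29, although copies of the other lists were not added. All 15 passed against 1 TPM. The elongation factor Eef1a1, which brings tRNA to the ribosome, stood at 1184, 781 and 665 TPM, Eef2, which moves the ribosome along, at 325, 120 and 502 TPM, Eif3h at 214 ± 58.8 TPM and the nascent-chain factor Btf3 at 163 ± 43.1 TPM. Eef1a1 was highest in replicate 1 and Eef2 in replicate 3, and 9 of the 15 were highest in replicate 3. Of 27 ribosome biogenesis genes, which build and process the subunits, 21 passed (level 3.73 ± 0.26), led by Nop10 (401 ± 64.6 TPM), Npm1 (144 ± 13.2 TPM), Nhp2 (143 ± 26.0 TPM) and Sbds (132 ± 20.0 TPM). Fbl, Polr1b, Gar1, Ubtf, Tsr1 and Polr1a did not pass. Of 12 genes of the growth signalling that acts on TOP mRNAs, 8 passed (level 2.69 ± 0.09), led by Rheb (111 ± 7.16 TPM), Eif4ebp1 (31.9 ± 13.0 TPM), Rps6kb1 (8.38 ± 2.61 TPM) and Eif4ebp2 (7.56 ± 1.32 TPM). Mtor, the kinase at its centre, stood at 3.60, 5.12 and 7.99 TPM and Larp1, which binds the TOP tract, at 5.30, 3.68 and 7.49 TPM. Myc, a transcription factor that drives ribosomal protein genes in growing cells, had 0, 1 and 0 counts.

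**Figure D5:**
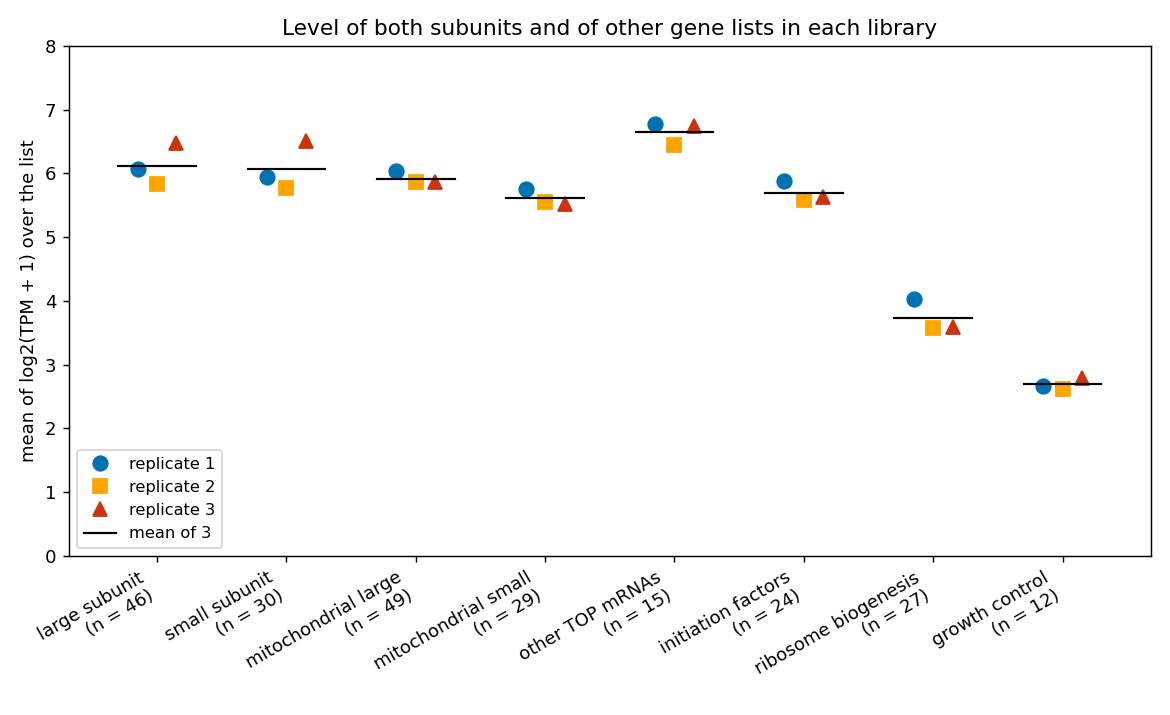
Mean of log2(TPM + 1) over the genes of each list in replicates 1 (circles), 2 (squares) and 3 (triangles), with the mean of 3 as a bar. Both subunits of the cytosolic ribosome are highest in replicate 3, at 6.47 and 6.51. The growth signalling list is also highest there, at 2.79. The mitochondrial subunits, initiation factors, other TOP mRNAs and ribosome biogenesis genes are not.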

How the data were processed

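Counts per gene and FPKM were used as deposited by the authors, with symbols, gene types and coordinates. The submitters' processing notes name HISAT2, StringTie, edgeR and GRCm39 without versions, and options for reads with several matches or for strand are not given in the sources used here. FPKM was rescaled to TPM within each library, and every one of the 57180 genes was kept in the totals. Levels were tested with limma 3.58.1 (R 4.3.3) on log2(TPM + 1), in an intercept-only fit with a mean-variance trend over 27265 genes. Spread used counts with edgeR 4.0.16 and, as alternatives, DESeq2 1.42.0 size factors. The scripts were tested on simulated data. Copies were found with BLAST+ 2.17.0 among GENCODE M21 pseudogenes, by gene ID, so builds were not mixed. P-values measure the spread between libraries, which may be technical. Members and gene lists were chosen with earlier results of these data known. Named were the 5 highest and 5 lowest genes per subunit, the 5 most and least variable, the stalk genes, Rpsa, Rps4x and Rps27a, those failing a test, the 5 with the largest pseudogene share, every paralog and the 4 highest of each other list of translation genes. Some genes under this rule are not reported here, and others were named after their values were seen. Alternatives were pseudocounts of 0.1 and 5, CPM, each replicate left out, other filters, and lengths and copies from GENCODE.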

Additional observations from a re-analysis of the deposited data

How the results depend on the processing

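Depth was lowest for Rps13, Rps12 and Rpl28, with 61 to 247 counts in a library, and elsewhere the gene length, the copies and the number of libraries (3) set the limits. The large minus small subunit difference (0.05) turned to -0.11 in CPM, -0.34 as a median over genes and -0.13 with further ribosomal protein genes added, and, with alternatives chosen after seeing the data, to -0.17 with coding length and -0.14 with transcript length; with sequence copies it was 0.30. With sequence copies the family minus mitochondrial difference was 2.06 (0.30 without), minus initiation factors 2.17 (0.41) and minus the TOP list 1.21 (-0.55). In CPM the last 2 were -0.64 and -1.28. Genes below the family median numbered 24, 15 to 27 with 1 library left out, and 13 with coding length and copies, when 17 rather than 28 stood above. Rpl10 stood at 1.35 with symbol pseudogenes added, 0.80 with sequence copies and 1.21 with coding length as well, against -2.11, and Rpl13 at 1.94 and 2.10 under the last 2, against -0.35. The family's share of counts (1.39%) was 2.30% with symbol pseudogenes and 3.17% with sequence copies. Symbol pseudogenes held 39.4% of the counts of genes and pseudogenes, processed ones alone 37.3%, and sequence copies 55.8%. With 1 library left out the median SD (0.48) was 0.11 to 0.55 and the common biological coefficient of variation (0.377) 0.155 to 0.434, the low values without replicate 3. Genes above 1 TPM numbered 70 to 76 under all alternatives run. The planned coding length from a protein table was not run, as no such table was given, and GENCODE's was used in its place. The cause of the turned results was not tested beyond the change each alternative makes. No paired analysis was possible because there is 1 group.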
